A study of Rattus norvegicus with 24 samples.

Results

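The genes described here are the 59 genes of the study's gene table that start between 163 Mb and 169 Mb on rat chromosome 1 (Rnor6), from Capn5 at 163073124 to Hbb at 168971274, a stretch that holds Ucp2 and C2cd3. The rule left out Plekhb1 and asked for at least 1 CPM (a gene's reads scaled to a common library total) in at least 6 of 23 rats, a filter on low values that all 59 passed. They are 59 of the 1216 tested genes that the table places on chromosome 1, and of 13838 tested in all. The annotation lists 58 of them as protein coding and 1 (AABR07004881.1) as a pseudogene.

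UCP2 is a carrier of the inner mitochondrial membrane, related to the carrier that uncouples respiration from ATP synthesis in brown fat. C2CD3 sits at the distal end of the centriole and is needed to build the appendages from which a primary cilium grows. Genes that lie side by side can share a promoter, an enhancer or an inherited stretch of chromosome, and so neighbours are often read together when lines bred apart are compared.

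The rats were adults of 2 lines, the bHRs (bred High Responders) and the bLRs (bred Low Responders), selected over many generations for high and low locomotion in an unfamiliar environment, with no transgene, deletion or drug in either. Whole hippocampus was sequenced as polyA RNA from 6 males and 6 females of each line, 1 animal a library, and the bHR female of family H05, labelled as failing for low RNA integrity, was left out, which gave 11 bHR rats (6 males and 5 females) and 12 bLR rats (6 of each sex). Males were 151 to 165 days old and females 188 to 192 days old, and the sexes were dissected on separate days, so that sex, labelled age and day cannot be told apart. The family labels place 1 male and 1 female of a line in each family, whereas the protocol describes the rats as drawn from distinct families, so it is not settled which animals of a line were related. The protocol also gives a younger age at death than the labels of the single rats, which are the ages printed here.

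Library totals ran from 16824899 to 28443049 counted reads, so a floor of 3 counts stood for 0.105 to 0.178 CPM. Below this floor no ratio of CPM values is given, whereas a fitted Log2FC rests on all rats of the fit and can include rats below it. Slc17a7, a marker of excitatory hippocampal neurons, was counted in every library (116 to 1467 CPM). The share of reads from ribosomal RNA (%rRNA), which the submitters list for each library, ran from 1.23% to 3.98% and had a median of 2.26% in the bHRs and 2.35% in the bLRs. The 4 rats with the lowest %rRNA (1.23% to 1.45%) were all females, 2 of each line. Because the tissue is bulk, fewer cells of a type and less RNA per cell cannot be told apart in any value below.

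The gene pair Ppme1 and C2cd3 is divergent: Ppme1 lies on the minus strand at chr1:165335242-165382216 and C2cd3 on the plus strand at chr1:165382690-165479655, so that their starts are 474 bases apart. Ucp2 follows on the plus strand at chr1:165506361-165512744, 26706 bases beyond the end of C2cd3, and Dnajb13 faces it from the minus strand at chr1:165515726-165530095. The far end of the stretch holds 2 beta globin genes, LOC100134871 at chr1:168957460-168958836 and Hbb at chr1:168971274-168972725. RefSeq promoter windows, each 250 bases before and 50 bases after a gene's start, were found for 49 of the 59 genes. The windows of the divergent pair and of the beta globin pair are shown because these neighbours carry the contrasts in co-variation described below. They are given 5′ to 3′ on each gene's own strand in the build GRCr8. Capitals mark matches, on either strand, to 4 motifs: the CCAAT box (its own letters), the GC box (GGGCGG), the TATA box (searched as TATAAA) and the CACCC box (its own letters).
Ppme1, chr1:164127171-164127470, minus strand: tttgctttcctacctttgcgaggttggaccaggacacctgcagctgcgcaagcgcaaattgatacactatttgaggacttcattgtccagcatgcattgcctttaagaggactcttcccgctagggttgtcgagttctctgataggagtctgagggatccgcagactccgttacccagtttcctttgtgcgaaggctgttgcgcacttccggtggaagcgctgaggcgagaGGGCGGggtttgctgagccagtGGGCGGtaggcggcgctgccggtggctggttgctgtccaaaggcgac
C2cd3, chr1:164127444-164127743, plus strand: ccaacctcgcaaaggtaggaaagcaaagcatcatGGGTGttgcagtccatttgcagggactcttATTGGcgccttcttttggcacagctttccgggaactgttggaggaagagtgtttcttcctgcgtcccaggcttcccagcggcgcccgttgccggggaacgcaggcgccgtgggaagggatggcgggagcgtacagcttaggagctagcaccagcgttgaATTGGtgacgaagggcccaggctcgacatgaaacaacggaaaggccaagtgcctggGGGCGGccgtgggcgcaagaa
Hbb, chr1:167663672-167663971, minus strand: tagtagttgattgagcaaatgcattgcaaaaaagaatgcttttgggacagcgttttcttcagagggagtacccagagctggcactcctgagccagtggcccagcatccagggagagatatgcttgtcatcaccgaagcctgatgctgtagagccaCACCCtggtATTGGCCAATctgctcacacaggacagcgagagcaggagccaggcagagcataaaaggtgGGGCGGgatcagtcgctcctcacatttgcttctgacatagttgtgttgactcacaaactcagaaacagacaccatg
LOC100134871 (named Hbbl1 by RefSeq), chr1:167650186-167650485, minus strand: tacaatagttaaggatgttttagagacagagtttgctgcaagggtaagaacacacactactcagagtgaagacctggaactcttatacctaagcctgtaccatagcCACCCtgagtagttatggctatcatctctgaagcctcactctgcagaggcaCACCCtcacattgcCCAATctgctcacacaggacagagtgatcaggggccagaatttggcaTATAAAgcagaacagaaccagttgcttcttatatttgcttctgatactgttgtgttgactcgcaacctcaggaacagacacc

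The Ppme1 and C2cd3 windows overlap by 27 bases. The Ppme1 window held 2 GC boxes, no CCAAT match and 18 CpG dinucleotides, and the C2cd3 window 2 CCAAT matches, 1 GC box, 1 CACCC match and 20 CpGs, against a median of 7 CpGs over 33469 promoter windows of the same length. The Hbb window held 2 CCAAT matches on opposite strands side by side, 1 CACCC match and 1 GC box, and the LOC100134871 window 1 CCAAT match, 1 TATAAA match and 2 CACCC matches, with 5 and 1 CpGs. Over all windows, 37.5% held CCAAT, 33.1% the GC box, 14.2% TATAAA and 54.9% CACCC, so matches of this kind are common and are given as a description only. LOC100134871 is on the plus strand in the Rnor6 gene table and on the minus strand in GRCr8, so the orientation of the beta globin pair, counted below as tail to tail by Rnor6, is uncertain.

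**Figure D1:**
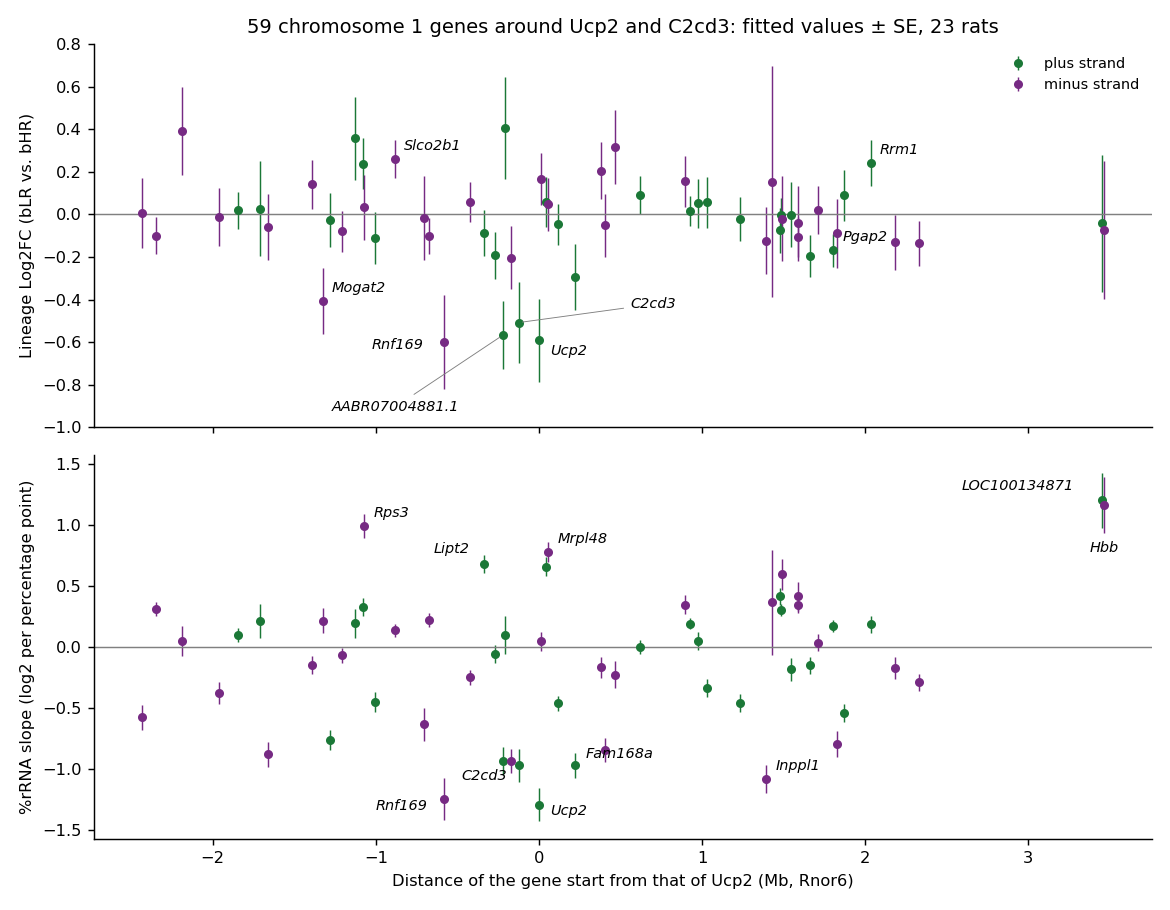
Fitted Log2FC for lineage (upper panel, bLR vs. bHR) and fitted slope on %rRNA (lower panel, log2 per percentage point) of the 59 genes against the distance of each gene's start from that of Ucp2 in Mb. Points are estimates over 23 rats, bars are ± 1 SE, and colors give the strand. Most lineage values lie within 0.2 of 0, and 4 genes from Rnf169 to Ucp2 lie lowest, at -0.51 to -0.60; in the lower panel those 4 and Inppl1 are among the most negative slopes, and Rps3 and the beta globin genes are the most positive.

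Lineage. The question was whether bLRs and bHRs differed in the expression of these genes and whether a difference followed position. None of the 59 genes passed the test (edgeR quasi-likelihood test, in a model that also held sex, the %rRNA and the percentage of intergenic reads, FDR < 0.10 after Benjamini-Hochberg adjustment over all 13838 genes), where 1.34% of all genes did. At an unadjusted p below 0.05, 8 of the 59 (13.6%) stood out, 2 with higher and 6 with lower values in bLRs, against 9.96% of all genes (5.72% higher and 4.23% lower). The other tools gave 0 genes (limma-voom, which called 1.4% of all genes) and 2 genes (AABR07004881.1 and Ucp2, by DESeq2, which called 2.38% of all genes). In CPM the rats of the lines overlapped for every one of the 59 genes, where 0.0217% of all genes were separated.

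The 4 most negative Log2FCs were those of Rnf169, AABR07004881.1, C2cd3 and Ucp2, which lie in this order along the chromosome, and none of them passed the test. Ucp2 was counted at 2.15, 9.92 and 27.5 CPM (lowest, median and highest rat) in the bHRs and at 0.546, 6.20 and 29.2 CPM in the bLRs. The highest and the lowest of the 23 rats were both bLRs, so the lines overlapped over nearly the whole range. The Log2FC was -0.59 ± 0.19 (SE, edgeR FDR = 0.215). In the model with the interaction of lineage and sex, which holds %rRNA but not %intergenic, males had a Log2FC of -0.66 ± 0.30 and females of -0.01 ± 0.31, and the difference between these did not pass (0.65 ± 0.43, edgeR FDR = 0.9999).

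C2cd3 was counted at 0.594, 2.13 and 6.73 CPM in the bHRs and at 0.199, 1.33 and 6.38 CPM in the bLRs, with as few as 4 reads in the lowest rat. Its Log2FC was -0.51 ± 0.19 (edgeR FDR = 0.302). Again the lines shared most of their range and differed in the median. Rnf169, a ubiquitin ligase of the response to DNA breaks, had the most negative Log2FC of the main model (-0.60 ± 0.22, edgeR FDR = 0.302). It was counted at 0.365, 1.10 and 3.00 CPM in the bHRs and 0.0454, 0.504 and 2.54 CPM in the bLRs. Its lowest bLR value was 1 read, under the floor of 3 counts, and only 10 rats reached 1 CPM. With limma-voom AABR07004881.1 (-0.54) and Ucp2 (-0.513) had more negative values than Rnf169 (-0.506).

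The lowest p belonged to AABR07004881.1, a pseudogene of 226 bases that lies inside the last part of Pgm2l1 on the same strand. Reads from this overlap cannot be placed with certainty in either gene, so the counts are uncertain to that extent. AABR07004881.1 was counted at 1.51, 4.51 and 21.1 CPM in the bHRs and 1.09, 4.82 and 15.5 CPM in the bLRs. The medians were in the opposite order to the fitted Log2FC of -0.57 ± 0.16 (edgeR FDR = 0.105), which is adjusted for %rRNA, sex and %intergenic. Pgm2l1 itself, which makes glucose-1,6-bisphosphate in brain, had a Log2FC of -0.19 ± 0.11 (edgeR FDR = 0.609).

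Whether these genes passed turned on single rats, on the tool and on the scaling. Without bHR female 6, AABR07004881.1 (-0.63, edgeR FDR = 0.0346) and Ucp2 (-0.64, FDR = 0.0960) both passed, in a fit that called 3.16% of all genes. AABR07004881.1 also passed without bHR male 3 (-0.60, FDR = 0.0692) and without bLR female 1 (-0.59, FDR = 0.0989), 3 (-0.60, FDR = 0.0938) or 6 (-0.56, FDR = 0.0892). With all 24 rats, Ucp2 (-0.67, FDR = 0.0556) and Slco2b1 (0.32, FDR = 0.0654) passed, where 2.12% of all genes did. None of them passed with the other covariates. With %rRNA as the only technical covariate the Log2FC was -0.31 for AABR07004881.1 (edgeR FDR = 0.443) and -0.36 for Ucp2 (FDR = 0.373), and with none it was -0.54 (FDR = 0.625) and -0.48 (FDR = 0.748).

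Besides these 4 genes, 4 others had an unadjusted p below 0.05. Slco2b1, an organic anion transporter, was counted at 7.45, 10.5 and 23.9 CPM in the bHRs and 11.3, 17.7 and 23.8 CPM in the bLRs (Log2FC 0.26 ± 0.09, edgeR FDR = 0.246). With %rRNA as the only technical covariate it was 0.44 (FDR = 0.173) and with none 0.48 (FDR = 0.225). Its bHR maximum was a single male, the other bHR males reached 12.8 CPM and the bHR females 20.9 CPM, so the lines overlapped with or without that rat. Rrm1, the large subunit of ribonucleotide reductase, was counted at 16.6, 29.4 and 38.2 CPM in the bHRs and 21.8, 36.9 and 42.9 CPM in the bLRs (0.24 ± 0.11, FDR = 0.441).

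Mogat2, a monoacylglycerol acyltransferase, was counted at 1.42, 2.00 and 2.88 CPM in the bHRs and 0.953, 1.21 and 2.25 CPM in the bLRs (-0.41 ± 0.15, edgeR FDR = 0.315). Most bLRs lay below most bHRs, more clearly than for Ucp2, but at a level close to the filter. Without bHR male 1 the Log2FC of Mogat2 was -0.23 (FDR = 0.720). Pgap2, which remodels GPI anchors, was counted at 11.9, 14.1 and 16.1 CPM in the bHRs and 10.2, 12.7 and 15.7 CPM in the bLRs (-0.17 ± 0.08, FDR = 0.471).

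**Figure D2:**
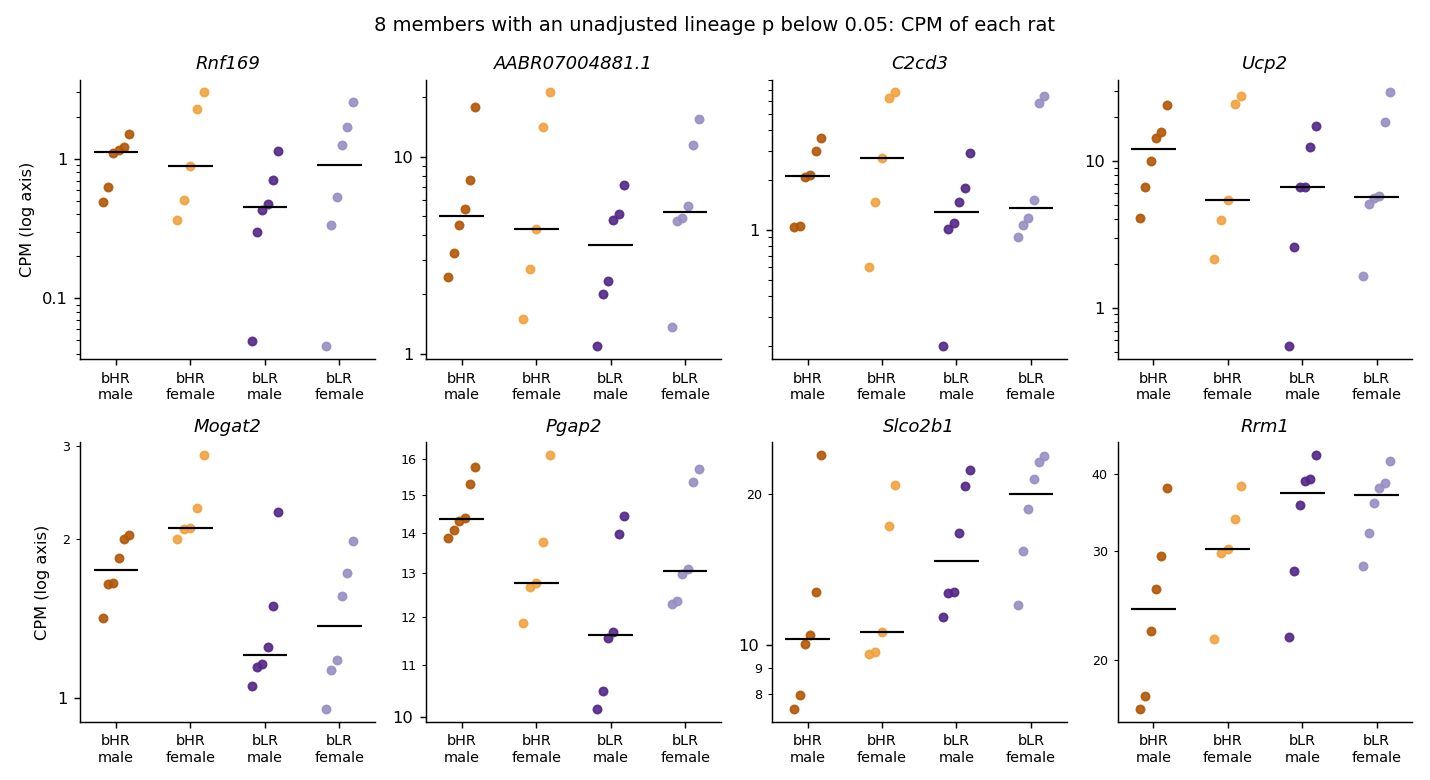
CPM on a log axis of the 8 genes with an unadjusted lineage p below 0.05, 1 point per rat and a line at each subgroup's median, for bHR males (n = 6), bHR females (n = 5), bLR males (n = 6) and bLR females (n = 6). In each panel rats of both lines share part of the range; for Ucp2 the 23 rats run from 0.546 to 29.2 CPM, and both ends are bLRs.

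Along the chromosome the sign changed often. Of the 59 genes, 25 (42.4%) had a positive Log2FC, against 6780 of all 13838 genes tested, and the median was -0.02 against -0.0035 over all genes. With limma-voom 33 were positive and the median was 0.0059, so the direction of the set as a whole turned with the tool. The median size of the Log2FC was 0.091 for the 59 genes and 0.10 over all genes, so the stretch as a whole did not carry larger lineage values than the genome. From 163 Mb to 164 Mb 4 of 7 genes were positive (median 0.0084), and from 164 Mb to 165 Mb 5 of 12 (-0.02). The genes from 165 Mb to 166 Mb, 16 in number and with Ucp2 and C2cd3 among them, had a median of -0.05 with 7 positive, and those from 166 Mb to 167 Mb a median of 0.02 with 6 of 11 positive. The lowest median, -0.09 with 3 of 11 positive, was that of the genes from 167 Mb to 168 Mb, away from the 2 genes, and both genes from 168 Mb to 169 Mb were negative (median -0.06). The longest run of a single sign was 7 genes with lower values in bLRs, from Anapc15 to Trpc2, and the next longest was 6 genes with higher values, from P2ry6 to Pde2a. The run of 7 holds Lamtor1 (-0.0010) and Numa1 (-0.00050), whose values are near 0, and Lamtor1 was positive with limma-voom (0.0033), which breaks the run. The run that holds the 2 genes was Ppme1, C2cd3 and Ucp2, 3 genes long.

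In that run Ppme1, the methylesterase of the phosphatase PP2A, had a Log2FC of -0.20 ± 0.15, which was -0.07 without bHR female 4 and -0.28 without bHR female 6. The genes on both sides of it had values of either sign. Before it lay P4ha3, a collagen prolyl hydroxylase subunit, with 0.40 ± 0.24, and before that the pseudogene AABR07004881.1 and Pgm2l1, both negative as given above. After it, Dnajb13, a radial spoke protein of motile cilia, had 0.17 ± 0.12, Coa4, an assembly factor of cytochrome c oxidase, 0.06 ± 0.12, and Mrpl48, a protein of the mitochondrial ribosome, 0.05 ± 0.12. Rab6a, a GTPase of the Golgi, had -0.05 ± 0.10.

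Neighbours shared the sign of the Log2FC in 30 of 57 pairs (52.6%), against 623 of 1215 neighbouring pairs (51.3%) over the tested genes of the chromosome. By orientation, 8 of 16 head-to-head pairs, 9 of 16 tail-to-tail pairs and 13 of 25 same-strand pairs shared it. The corresponding shares over the chromosome were 52.3%, 47.2% and 52.8%. Of the 2 head-to-head pairs with the closest starts, Ppme1 and C2cd3 had the same sign, and Nup98 (0.02 ± 0.11) and Pgap2 (-0.17 ± 0.08) had opposite signs.

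Co-variation with %rRNA. The slope on %rRNA passed the test in 47 of the 59 genes (79.7%, edgeR, FDR < 0.10), 20 positive and 27 negative, where 76.4% of all genes passed, 36.2% positive and 40.2% negative. The 59 genes were therefore close to the background in this respect. Across the 59 genes, which are not independent, the lineage Log2FC and the slope, both from the same fit, had r = 0.447 and rho = 0.354, against 0.197 and 0.225 over all genes. The median size of the slope was 0.34 log2 units per percentage point for the 59 genes and 0.33 over all genes. With RLE size factors or DESeq2, which move the median slope of all genes from -0.02 to 0.02, 43 genes passed and the split was 22 positive and 21 negative, where 76.8% (RLE) and 77.1% (DESeq2) of all genes passed.

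The 5 most negative slopes were those of Ucp2, Rnf169, Inppl1, C2cd3 and Fam168a. Ucp2 had a slope of -1.29 ± 0.14 (edgeR FDR = 2.92e-08), at the 1.03 percentile of all genes. In the 4 rats with the lowest %rRNA it was counted at 18.3 to 29.2 CPM, and in the 4 with the highest (3.09% to 3.98%) at 0.546 to 2.59 CPM. The 2 ranges did not touch, and each held rats of both lines, though most of the 4 with the highest %rRNA were bLRs. The labelled RNA concentration of each of the 4 rats lowest in %rRNA was above that of each of the 4 highest. The part of RNA concentration in the slopes was not tested. Rnf169 had a slope of -1.24 ± 0.17, Inppl1, which encodes the lipid phosphatase SHIP2, -1.08 ± 0.11, and C2cd3 and Fam168a -0.97 ± 0.13 and -0.97 ± 0.10 (edgeR FDR between 2.25e-08 and 9.20e-07).

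C2cd3 was likewise high where %rRNA was low. It was counted at 5.80 to 6.73 CPM in the 4 rats with the lowest %rRNA and at 0.199 to 1.10 CPM in the 4 with the highest. Ppme1, its divergent neighbour, was counted at 109 to 132 CPM in the former and at 6.90 to 20.7 CPM in the latter, with a slope of -0.93 ± 0.10. The pseudogene AABR07004881.1 had a slope of -0.93 ± 0.11, whereas its host Pgm2l1 had -0.05 ± 0.07 and did not pass (FDR = 0.513).

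The 5 most positive slopes were those of the 2 beta globin genes, Rps3, Mrpl48 and Lipt2. LOC100134871 had 1.21 ± 0.23 and Hbb 1.17 ± 0.23. Rps3, a protein of the small ribosomal subunit, had 1.00 ± 0.10 and was counted at 1363 to 1770 CPM in the 4 rats with the lowest %rRNA and 4403 to 6799 CPM in the 4 with the highest. Mrpl48 had 0.78 ± 0.08, Lipt2, the octanoyltransferase of lipoate synthesis, 0.68 ± 0.07, and Coa4 0.66 ± 0.08 (edgeR FDR between 1.76e-08 and 7.12e-05). Ucp2 on one side and Coa4 and Mrpl48 on the other are near neighbours with slopes of opposite sign, and all 3 genes encode mitochondrial proteins.

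**Figure D3:**
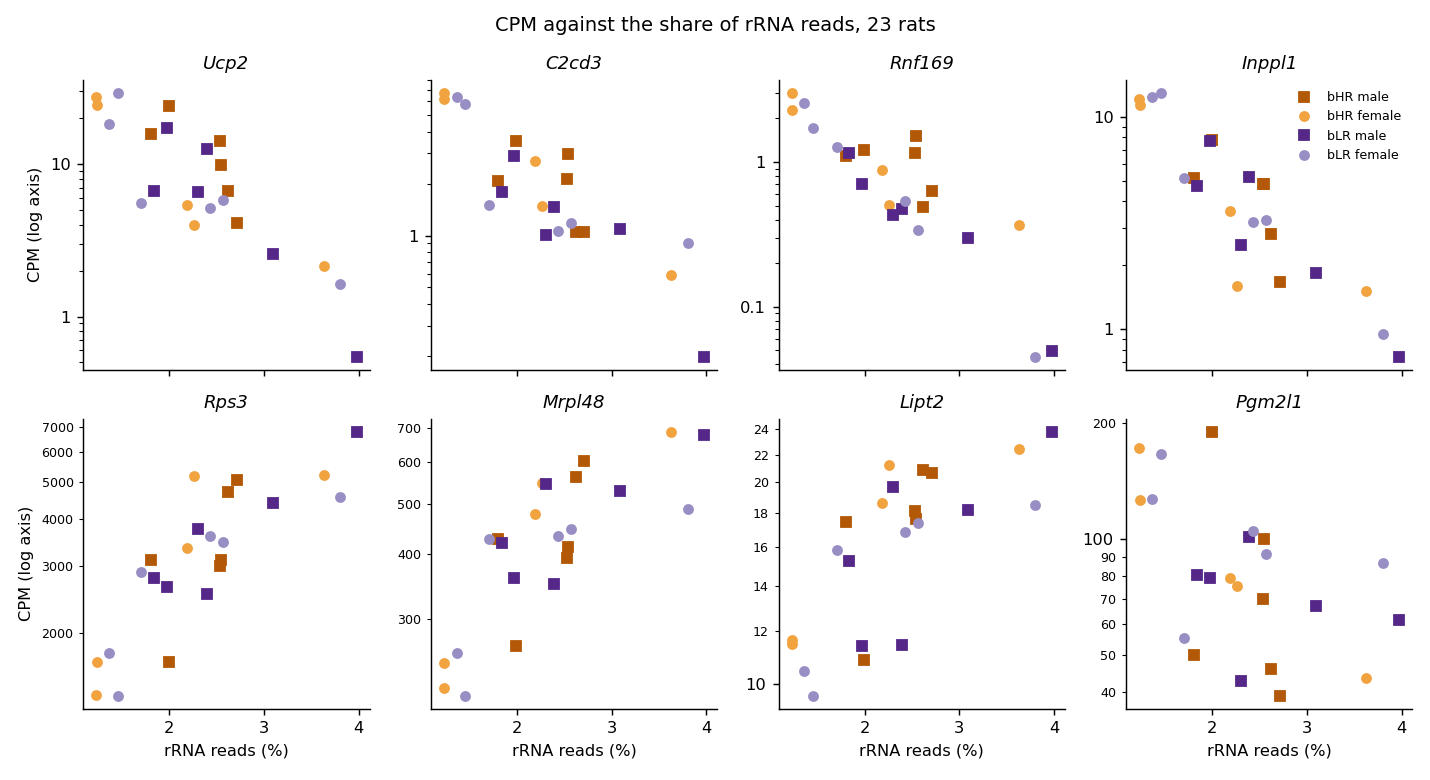
CPM (log axis) of 8 of the 59 genes against the percentage of rRNA reads, 1 point per rat, with squares for males, circles for females and color for the line. Ucp2, C2cd3, Rnf169 and Inppl1 are low where %rRNA is high, Rps3, Mrpl48 and Lipt2 are high there, and Pgm2l1 (slope -0.05) shows no slope past the test.

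The relation held within the subgroups. After the mean of each subgroup was taken out, log2 CPM of Ucp2 and %rRNA gave Pearson's r = -0.889 (permutation test within subgroups, p = 1e-05, the smallest it can give, adjusted over all genes 9.16e-05) and Spearman's rho = -0.855 (permutation p = 2e-05, adjusted 0.000131) over 23 rats. Left without the 2 rats with the %rRNA farthest from its median, r was -0.823. By subgroup r was -0.800 in bHR males, -0.931 in bHR females, -0.916 in bLR males and -0.889 in bLR females. For C2cd3 r was -0.855 (permutation p = 2e-05, adjusted 0.000131) and rho -0.843 (permutation p = 2e-05, adjusted 0.000131), and -0.834 without those 2 rats, with -0.480, -0.981, -0.914 and -0.776 in the same order of subgroups. By this correlation 42 of the 59 genes passed (71.2%), against 71.4% of all genes.

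The 4 females with the lowest %rRNA did not carry the relation alone. Over the other 19 rats r was -0.827 for Ucp2 (permutation p = 0.00023, rho = -0.740, permutation p = 0.00137) and -0.768 for C2cd3 (permutation p = 0.00047, rho = -0.737, permutation p = 0.00122), an alternative chosen after the data were seen. Longer genes tended to more negative slopes: across the 59 genes, which are not independent, the slope and the log10 of the genomic span had r = -0.405 and rho = -0.470, against -0.285 and -0.288 across the 1216 genes of the chromosome.

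Co-variation of neighbours. To ask whether adjacent genes moved together beyond line, sex, %rRNA and %intergenic, these terms were taken out of log2 CPM and the residuals of each gene and the next were correlated over 23 rats. The median r over the 57 pairs was 0.108 (0.0652 for rho), against 0.0442 over the 1215 pairs of the chromosome. Over all 1711 pairs of the 59 genes, whatever their distance, it was 0.0023. The median of neighbours ran from 0.0786 to 0.139 when 1 rat at a time was left out, and was -0.0199 when only subgroup means were taken out. A permutation test, adjusted over all 1215 pairs, passed in 19 of the 57 pairs (33.3%), 10 of them positive, where 29.3% of the pairs of the chromosome passed. The shuffling over 23 rats does not allow for the terms fitted beforehand, so these p-values and those of the pairs below may be too small. Adjacent genes of this stretch thus moved together and apart about as often as elsewhere on the chromosome.

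The 3 highest correlations were those of the beta globin genes, of Coa4 and Mrpl48, and of Anapc15 and Lamtor1. LOC100134871 and Hbb, 12438 bases apart, had r = 0.996 (permutation p = 1e-05, adjusted 0.000347, rho = 0.989, adjusted 0.000405, and 0.993 without the 2 rats farthest from the median). Only uniquely placed reads were counted, so reads that fit both of these globin genes equally well would be missing from both, and their counts are uncertain to that extent. Coa4 and Mrpl48, which meet tail to tail, had r = 0.943 (permutation p = 1e-05, adjusted 0.000347, rho = 0.913, and 0.907 without 2 rats), and both encode mitochondrial proteins. Anapc15, a subunit of the anaphase-promoting complex, and Lamtor1, which anchors the Ragulator complex to lysosomes, had r = 0.705 (permutation p = 0.00017, adjusted 0.00272, rho = 0.663, and 0.566 without 2 rats).

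The 3 lowest were Rps3 and Arrb1, which encodes beta-arrestin 1 (r = -0.738, permutation p = 0.00012, adjusted 0.0020, rho = -0.629, and -0.493 without 2 rats), Pold3, a subunit of DNA polymerase delta, and Lipt2 (r = -0.704, permutation p = 0.00025, adjusted 0.00359, rho = -0.722, and -0.634), and Capn5, a calpain, and Acer3, an alkaline ceramidase (r = -0.694, permutation p = 0.00026, adjusted 0.00359, rho = -0.648, and -0.626). In each of these pairs 1 gene had a positive and the other a negative slope on %rRNA (Rps3 1.00 and Arrb1 -0.45, Lipt2 0.68 and Pold3 -0.25, Acer3 0.31 and Capn5 -0.57). The residuals were taken after a straight-line term in %rRNA, and whether a remainder of that relation entered them was not tested.

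The correlations of C2cd3 with the genes on both sides of it were weaker after all 4 terms than after subgroup means alone. Ppme1 and C2cd3 had r = 0.869 after subgroup means alone and 0.372 after all 4 terms (permutation p = 0.0778, adjusted 0.199, rho = 0.423, and 0.449 without 2 rats). C2cd3 and Ucp2 went from 0.884 to 0.374 (permutation p = 0.0785, adjusted 0.200, rho = 0.341, and 0.441 without 2 rats). Neither passed at this number of rats. Ucp2 and Dnajb13, which end 2982 bases apart, had r = 0.331 (permutation p = 0.123, adjusted 0.269) and -0.144 after subgroup means alone.

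The other close divergent pair moved in opposite directions. Nup98, a protein of the nuclear pore, and Pgap2 start 200 bases apart and had r = -0.628 (permutation p = 0.00088, adjusted 0.00884, rho = -0.621, and -0.618 without 2 rats, and -0.371 after subgroup means alone). Pgm2l1 and the pseudogene inside it had r = 0.565 (permutation p = 0.00513, adjusted 0.0307). By orientation the median r was 0.0206 for 16 head-to-head pairs, 0.216 for 16 tail-to-tail pairs and -0.0908 for 25 same-strand pairs, and the corresponding medians of the chromosome were 0.0182, 0.0656 and 0.0490.

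**Figure D4:**
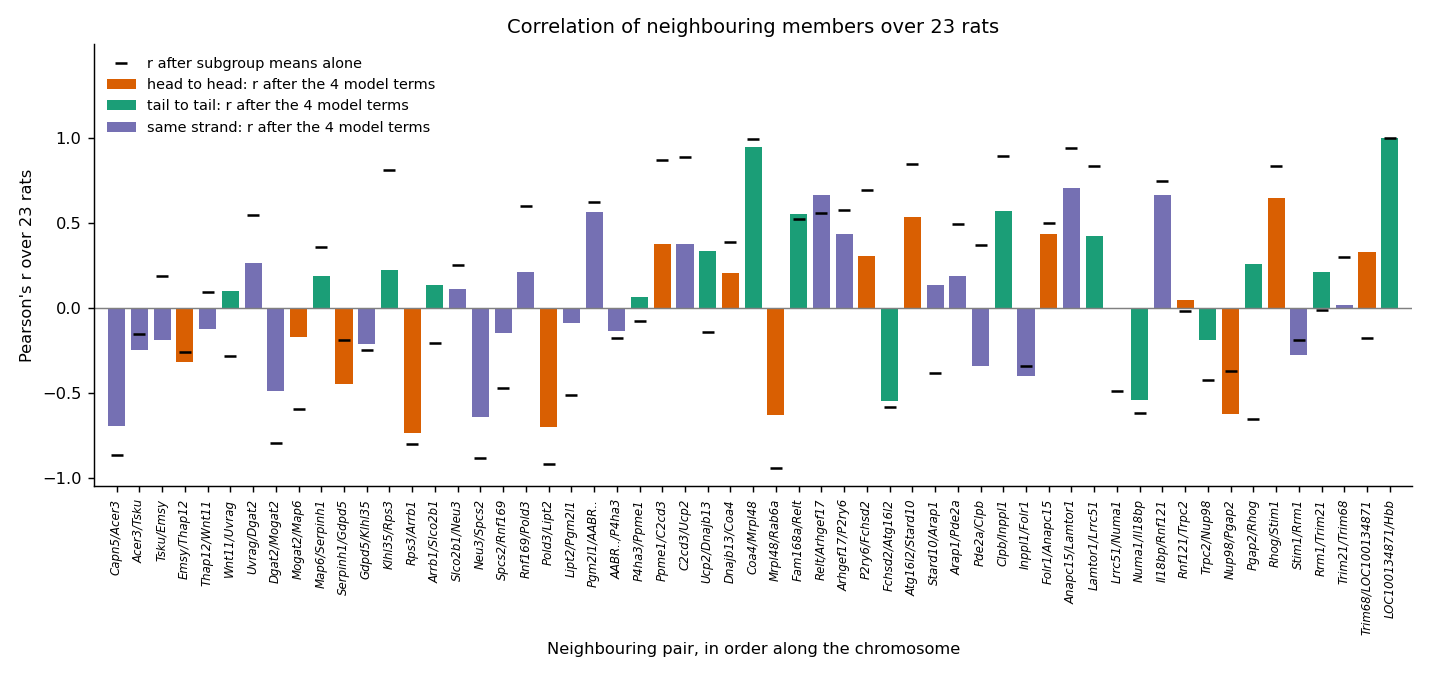
Pearson's r over 23 rats between each of the 59 genes and the next tested gene of the chromosome, for the 57 pairs in which both are among the 59, in order of position. Bars give r after lineage, sex, %rRNA and %intergenic were taken out, colored by orientation, and dashes give r after subgroup means alone; Ppme1/C2cd3 falls from 0.869 to 0.372 and C2cd3/Ucp2 from 0.884 to 0.374, while LOC100134871/Hbb has 0.998 and 0.996.

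The genes most like Ucp2 were not its neighbours. Among the 1979 tested genes whose symbol was at hand, the residuals of Ucp2 over 23 rats were most like those of Napa (r = 0.915). Aplp1 (0.867) was also among the closest. Those of C2cd3 were most like Grin2d (0.784), Dyrk1b (0.766) and Pcnx3 (0.763). Among all 13838 genes Napa ranked 1 and Aplp1 8 for Ucp2, and Grin2d 21, Dyrk1b 39 and Pcnx3 43 for C2cd3. The 1979 genes come from chromosome 1 and from the study's results for sex, so genes without a symbol here were closer to C2cd3. Within the 59 genes, Ucp2 had r = 0.712 with Ppme1, 0.653 with Inppl1, 0.374 with C2cd3 and 0.247 with Rnf169. These are descriptions, as the genes were ranked on the same values.

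Sex. The 3 genes that passed for sex, where 0.354% of all genes did, were the 2 beta globin genes and Dnajb13, each lower in females (0.267% of all genes were lower). In CPM none of the 59 separated the sexes, against 0.0723% of all genes. Hbb was counted at 528.5, 1011 and 3547 CPM in the 12 males and 43.5, 318 and 707 CPM in the 11 females, with a Log2FC of -2.02 ± 0.34 (female vs. male, edgeR FDR = 0.00273). LOC100134871 was counted at 142, 263 and 966 CPM in males and 11.4, 84.9 and 178 CPM in females (-2.03 ± 0.33, FDR = 0.00247). The lowest males overlapped the highest females in both genes, and the order of rats was almost the same in each.

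Both globin genes moved with red cell genes elsewhere in the genome. Of the erythroid list, the 3 genes that could be matched by symbol were also lower in females, Hba-a1 by a Log2FC of -2.20 ± 0.31, Hba-a2 of -2.13 ± 0.32 and Alas2, the heme synthesis enzyme of red cells, of -2.02 ± 0.29 (edgeR FDR between 0.000405 and 0.000863). Their summed level was 166 to 1106 CPM in males and 23.2 to 122 CPM in females. The residuals of Hbb correlated with those of Hba-a1 at 0.895, Hba-a2 at 0.957 and Alas2 at 0.787, given as a description over 23 rats. The symbols of Hba-a1, Hba-a2 and Alas2 came from the study's results for sex. Those results include a list of genes picked for sex differences, in part in these rats. That all 3 were lower in females is therefore a description and no independent check. The part of red cells in the sex values of the beta globin genes was not tested.

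Dnajb13 was counted at 22.2, 29.3 and 40.1 CPM in males and 12.9, 22.4 and 30.4 CPM in females, a Log2FC of -0.58 ± 0.12 (edgeR FDR = 0.0243). Its median differed by less than the range within either sex, and the call did not hold in every fit. It missed the threshold with family as a replicate block (-0.57, FDR = 0.131) and without bHR male 3 (-0.50, FDR = 0.152), bHR male 4 (-0.50, FDR = 0.110), bHR male 6 (-0.49, FDR = 0.136) or bLR male 1 (-0.53, FDR = 0.116). Tmem212, the marker of ependyma that could be matched, had a sex Log2FC of -0.16 ± 0.21 (FDR = 0.789).

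**Figure D5:**
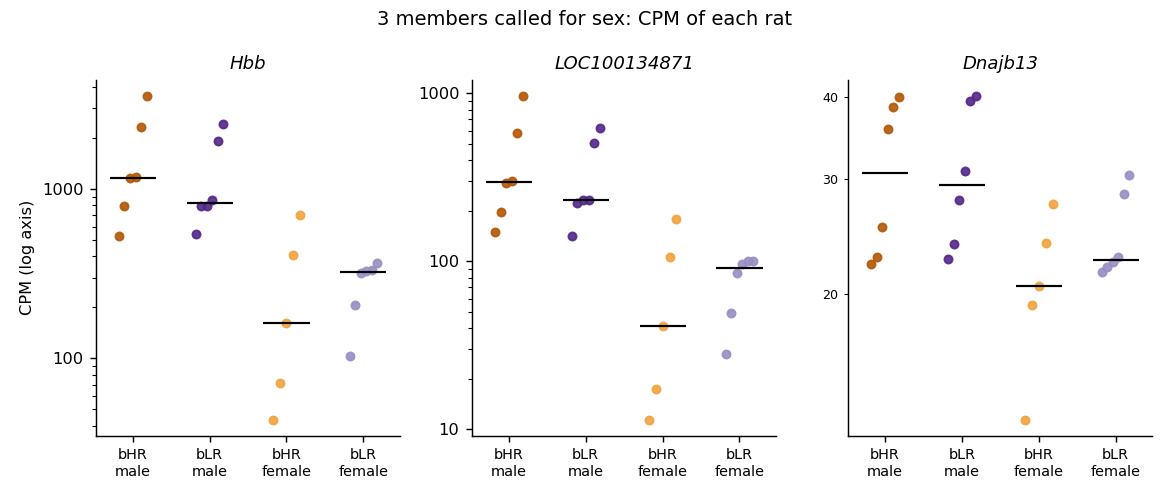
CPM (log axis) of Hbb, LOC100134871 and Dnajb13 in each rat, with a line at each subgroup's median (bHR males n = 6, bLR males n = 6, bHR females n = 5, bLR females n = 6). In all 3 panels the medians of both female subgroups lie below those of both male subgroups, and Dnajb13 spans 12.9 to 30.4 CPM in females and 22.2 to 40.1 CPM in males.

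At an unadjusted p below 0.05, 9 of the 59 genes differed by sex, 5 higher and 4 lower in females, against 11.2% of all genes. Beyond the 3 above these were Tsku, a secreted leucine-rich proteoglycan (0.57 ± 0.19, edgeR FDR = 0.299), P4ha3 (0.50 ± 0.23, FDR = 0.427), Pgm2l1 (0.26 ± 0.11, FDR = 0.380), Nup98 (0.24 ± 0.11, FDR = 0.412), Fchsd2, a membrane-bending endocytic protein (0.22 ± 0.09, FDR = 0.336), and Ucp2 (-0.53 ± 0.18, FDR = 0.306). Tsku was counted at 0.316, 0.760 and 2.20 CPM in males and 0.777, 1.60 and 2.68 CPM in females. Ucp2 was counted at 0.546, 8.28 and 24.1 CPM in males and 1.63, 5.55 and 29.2 CPM in females. These 6 genes did not pass the test.

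The interaction of lineage and sex passed in 0 of the 59 genes by edgeR, limma-voom and DESeq2, and in 0% of all genes. At an unadjusted p below 0.05 there were 0 of the 59 genes, where 2.35% of all genes had one. With %intergenic added to this model there were 3, Gdpd5 (-0.72 ± 0.35, edgeR FDR = 0.599), Rrm1 (-0.45 ± 0.19, FDR = 0.561) and Nup98 (-0.43 ± 0.20, FDR = 0.573), named after their values were seen, where 8.26% of all genes had one. Lineage in males alone and in females alone also gave 0 genes past the test among the 59 (edgeR, separate fits, with 58 of them tested in males), with 7 genes in males and 2 in females at an unadjusted p below 0.05, where 8.4% and 5.99% of all genes had one.

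Partners of Ucp2, C2cd3, Ppme1 and Lipt2 could be followed only in part, because symbols were at hand for only 1979 of the 13838 tested genes. Of 6 uncoupling carriers and of 9 genes of centriole appendages and cilium assembly, only Ucp2 and C2cd3 could be matched. Of 10 genes of lipoate attachment and mitochondrial fatty acid synthesis, Lipt2 and Ndufab1, the acyl carrier protein, were matched, and both had positive slopes on %rRNA (0.68 ± 0.07 and 0.60 ± 0.07, edgeR). Of 5 genes of PP2A methylation, 3 were matched: Ppme1 and the scaffold subunit Ppp2r1a had negative slopes (-0.93 ± 0.10 and -0.61 ± 0.07), and the methyltransferase Lcmt1 had 0.05 ± 0.05 (edgeR FDR = 0.336). None of these genes passed for lineage by edgeR.

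Markers of cell types were followed in the same way. For lineage none of the matched markers passed (edgeR): Itgam (1 of 10 microglial genes), Tmem212 (1 of 7 ependymal), 3 of 8 erythroid, Igf2 (1 of 7 of meninges and fibroblasts), Slc17a7 (1 of 5 neuronal), Mag (1 of 4 of oligodendrocytes) and Gfap, Aqp4 and Slc1a3 (3 of 4 of astrocytes). None of the 10 choroid plexus and 5 endothelial genes was among the genes whose symbol was at hand here, so these cells were not checked. The slope on %rRNA was negative for Slc17a7 (-0.81 ± 0.10), Gfap (-0.72 ± 0.10), Mag (-0.51 ± 0.09) and Aqp4 (-0.50 ± 0.07), and positive for Igf2 (0.67 ± 0.28), Slc1a3 (0.33 ± 0.08) and the 3 erythroid genes (0.45 to 0.63), all past the edgeR test. Their part in the slopes of the 59 genes was not tested. Summed erythroid levels were 23.2 to 1106 CPM in the bHRs and 54.0 to 391 CPM in the bLRs.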

How the data were processed

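PolyA RNA of whole hippocampus from 24 rats was sequenced in paired ends. The authors aligned reads to Rnor6 with STAR 2.7.3a, kept unique hits and counted them by strand per Ensembl v103 gene with Subread 2.0.0 (R 4.1.1 and limma 3.48.3 are also named in the submitters' notes). What the authors deposited was a table of unnormalized, unfiltered counts. Gene positions are those of Ensembl v88 in the study's gene table, of which the chromosome 1 part was read here. Symbols were at hand for 1979 of 13838 tested genes, from that part and from the study's results for sex. Those results include a list of genes picked for sex differences. The study itself gives symbols for most genes. Promoter windows come from RefSeq (GRCr8).

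The set of genes, the lists and the rule for naming genes were chosen with earlier results of these data known. Named were Ucp2, C2cd3 and genes starting near either, genes with an unadjusted p below 0.05, the 5 most negative and 5 most positive %rRNA slopes, close head-to-head pairs, the 3 highest and 3 lowest neighbour correlations, the beta globin genes, and the genes most like Ucp2 and C2cd3, of which 1 is not reported here.

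Rats with a RIN above 8 were used. Genes that reached 1 CPM in 6 or more rats were normalized by TMM and tested with the quasi-likelihood test of edgeR 4.0.16 in R 4.3.3, on lineage, sex and the percentages of rRNA and intergenic reads, or lineage, sex, %rRNA and the interaction. Adjustment (Benjamini-Hochberg) ran over all genes tested, with FDR < 0.10 as threshold. The p-values measure the spread between these rats. Log2 CPM (prior count 2) entered the correlations, with 100000 two-sided permutations (Python 3.11.15, numpy 2.4.6, scipy 1.17.1, pandas 2.3.3). Depth limits genes of a few reads, and floors cover counting error only. The fits were tested on simulated data. Other settings tried were DESeq2 1.42.0, limma-voom from limma 3.58.1, size factors by RLE, a filter of 1 read in 25% of rats, all 24 rats, other covariates, family as a replicate block, a prior count of 0.5, single sexes and each rat left out.

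The family labels pair 1 male and 1 female in each of 11 families with both rats in use. Deviations of the 2 rats from their subgroup means correlated above 0.1 in 6 of these 11 pairs (lowest -0.725, median 0.147, highest 0.780), and the labels, not this check, are the ground for the block.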

Additional observations from a re-analysis of the deposited data

Results flagged for a closer look

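In 5 of 120 subgroup and gene combinations of the named genes, 1 rat stood apart from the rest of its subgroup by Dixon's criterion, and in 19 of 236 combinations over all 59 genes. Chance alone flags about 1 in 20 groups. In bHR male 1, Slco2b1 was 23.9 CPM (nearest rat 12.8), AABR07004881.1 was 17.9 CPM (nearest 7.59) and Lipt2 was 10.8 CPM (nearest 17.4). In bLR male 3, Mogat2 was 2.25 CPM (nearest 1.49), and in bLR female 3, Acer3 was 28.8 CPM (nearest 36.5). Of the 5, 3 fell on bHR male 1. Without that rat the lineage Log2FC was -0.79 for Ucp2 (edgeR FDR = 0.164), -0.68 for C2cd3 (FDR = 0.291), -0.61 for AABR07004881.1 (FDR = 0.242) and 0.24 for Slco2b1 (FDR = 0.511), so that each kept its sign and none passed.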

How the results depend on the processing

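The count of genes past the lineage test was 0 in the main model, 2 with DESeq2, 1 with RLE size factors, 2 with all 24 rats and 0 to 2 when 1 rat at a time was left out. Ucp2 kept its sign throughout: its lineage Log2FC was -0.62 with DESeq2 (FDR = 0.0608) and -0.67 with all 24 rats (FDR = 0.0556), which passed, and -0.79 to -0.49 with 1 rat left out, of which only the fit without bHR female 6 passed. It was -0.36 (FDR = 0.373) with %rRNA as the only technical covariate and -0.48 (FDR = 0.748) with none. C2cd3 passed under none of these. The cause was not tested. The median neighbour correlation was -0.0199 after subgroup means alone. The number of neighbours that shared a sign was 23 to 31 of 57 in the other fits and 24 to 35 with 1 rat left out, and this recount, like the refits of the genes called for sex, was chosen after the data were seen. The count for %rRNA was 42 to 49 in the other fits and 42 to 48 with 1 rat left out.

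With family as a replicate block, 2 genes passed for sex (Dnajb13 did not), 0 for lineage, and the lineage Log2FC was -0.51 for Ucp2 and -0.47 for C2cd3. Each family lies within 1 line, so lineage could not be paired: its block was a random effect in limma-voom (correlation 0.00852), and limma-voom without the block gave the same -0.51 and -0.47. The block, fitted for lineage and sex only, changed no other call of these, and the slopes on %rRNA and the interaction were not refitted with it. The lineage fit with the block gave 0.23 for Hbb, 0.22 for LOC100134871 and 0.0029 for Lamtor1, each negative in the main model, as did limma-voom (0.23, 0.22 and 0.0033), and all 24 rats gave 0.012 for Hbb and 0.037 for LOC100134871. Other lineage values near 0 also changed sign. Capn5 was -0.00037 with DESeq2. Without technical covariates Coa4 was -0.090, Mrpl48 -0.11 and Rps3 -0.076, and with %rRNA as the only one Coa4 was -0.17, Mrpl48 -0.18, Rps3 -0.23, Pgm2l1 0.021 and Rab6a 0.066. With 1 rat left out the range was -0.12 to 0.019 for Anapc15, -0.22 to 0.083 for Capn5, -0.22 to 0.32 for Hbb, -0.19 to 0.33 for LOC100134871, -0.032 to 0.037 for Lamtor1, -0.032 to 0.085 for Nup98, -0.10 to 0.0014 for Rab6a and -0.021 to 0.18 for Rps3. Depth limits genes of few reads, such as Rnf169 and C2cd3, with 1 and 4 reads in their lowest rats.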
